A study of Drosophila melanogaster with 2 samples.

Results

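The sex peptide network of Drosophila melanogaster was described here by 10 genes, of 17698 in the table of mRNA levels. They were taken by gene symbol: SP, Dup99B, SPR, aqrs, antr, intr, lectin-46Ca, lectin-46Cb, CG9997 and CG17575. All 10 were found and all had reads, as did 16048 of the 17698 genes. The series holds 1 mRNA library and 1 small RNA library of adult fruitflies, and only the mRNA library bears on these genes. It was made from total RNA of adults with Trizol. The paper's methods describe only the small RNA library, from RNA isolated from individual adults. Neither the labels nor the paper give the strain, age, sex, mating state or number of the flies behind the mRNA library. With no replicate and no second condition, no difference between groups could be tested, and each value describes this library alone.

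Sex peptide (SP) is a small peptide of the male accessory gland. It is passed to the female in the seminal fluid, where it binds to sperm and is released over days, and it lowers the readiness of the female to mate again and raises egg laying. Other male proteins of the seminal fluid, among them lectins, cysteine-rich secretory proteins and serine protease homologues, are needed for SP to be bound to stored sperm. SP acts through the sex peptide receptor (SPR), a G protein-coupled receptor of the female reproductive tract and of neurons, which also responds to the myoinhibitory peptides.

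The network genes covered a wide range of mRNA levels. Dup99B and SP, which encode the ligands, were the most abundant at 1072 and 334.4 TPM (a level per transcript length, scaled so that all transcripts of the library have a fixed sum). The other 7 male-made members lay between 11.6 and 163.5 TPM, and SPR stood at 12.6 TPM. Of the 10 genes, 8 were above the median of all 16048 genes with reads, 16.2 TPM, and SPR and intr were below it. SP and Dup99B together gave 71.0% of the 1981 TPM summed over the 9 male-made members.

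The table lists estimated reads per transcript, which summed to 26179479 over all genes, and the 10 genes took 16826 of them (0.0643%). Genes known from the organs of both sexes had reads, as did 16048 of all 17698 genes. All 20 accessory gland genes and all 12 testis genes looked up had reads, with medians of 385.2 and 354.5 TPM. The testis genes ran from ProtA at 85.3 TPM to Mst87F at 933.9 TPM. So had all 16 genes of eggshell, egg and yolk, with a median of 199.0 TPM, from Cp38 at 3.16 TPM to Vm34Ca at 1361 TPM. In a library of whole adults, fewer cells of a type and less RNA per cell cannot be told apart. How far the ratio of male-made members to SPR reflects the number of flies of each sex cannot be told apart from the levels per fly.

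**Figure D1:**
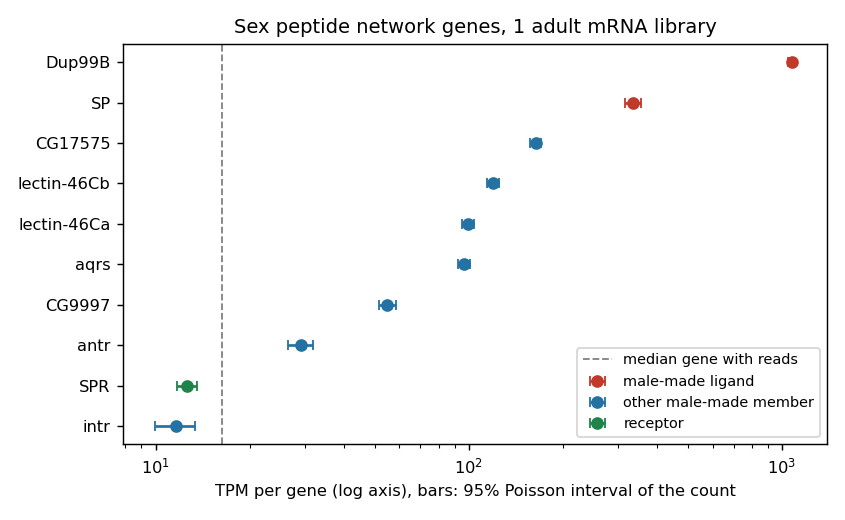
TPM per gene (horizontal, log axis) of the 10 network genes in the adult mRNA library, with bars for the 95% Poisson interval of the count and a dashed line at the median gene with reads. Dup99B at 1072 TPM and SP at 334.4 TPM stand apart on the right, and SPR and intr are left of the median of 16.2 TPM.

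Dup99B, a peptide of the male ejaculatory duct that is related to SP and can also activate SPR, had 4685 reads and 1072 TPM (95% exact Poisson interval 1042 to 1103). The intervals given here cover counting error only, and neither the spread between libraries nor the assignment of reads to transcripts. Dup99B ranked 128th by TPM and was above 99.2% of genes with reads. Of the 20 accessory gland genes, 2 were higher than Dup99B, namely Mst57Db at 3230 TPM and Acp95EF at 1329 TPM. It is encoded on chromosome arm 3R, 29715068 to 29715377, on the minus strand. Of its 2 transcripts, FBtr0089608 held 4368 reads and 94.4% of its TPM. FBtr0305053, with 317 reads, had a length of about 310 bases, which is the whole span of the gene, whereas the abundant transcript had about 255 bases. The rarer form therefore keeps sequence that is spliced out of the other.

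SP, also known as Acp70A, had 1252 reads and 334.4 TPM (interval 316.1 to 353.4). It ranked 420th and was above 97.4% of genes with reads. It has 1 listed transcript of about 221 bases, from 3L, 13301635 to 13301922, on the plus strand. Among the same accessory gland genes 12 were higher than SP and 8 were lower, so that SP lay near the middle of them. SP mRNA was lower than that of Dup99B, with a ratio of Dup99B to SP of 3.21 (interval 3.01 to 3.42). Both transcripts are very short, and the deposited TPM divides reads by the whole transcript length. If 100 bases are taken off each length of at least 150 bases and TPM is scaled anew, SP comes to 536.3 TPM and Dup99B to 1541 TPM. This is an assumed allowance for the size of fragments, added once the values were known.

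SPR, the receptor, had 714 reads and 12.6 TPM (interval 11.7 to 13.5) and was above 45.9% of genes with reads. It spans 47357 bases of the X chromosome, 5446656 to 5494012, on the plus strand. All of its reads were assigned to FBtr0339781, the transcript with the farther 3' end, and the other 2 transcripts, FBtr0344824 and FBtr0070778, are listed at 0. Since transcripts of a gene share sequence, such a 0 is an estimate and does not show that a form is missing. The 3' end of SPR overlaps fra mauro (frma), a gene of the opposite strand, by 999 bases of FBtr0339781 and by 527 bases of each of the other transcripts. frma is itself known as a member of the network that is needed in females. It had 343 reads and 7.27 TPM. No source used here says whether the library or the counting kept the strand of the reads, so that reads from the shared stretch may belong to either gene. The stretch by which FBtr0339781 extends beyond the 3' end of the other 2 transcripts, at 5493540, lies within frma. How far the assignment of reads to FBtr0339781 depends on reads from frma was not tested.

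SPR was among the most abundant of 34 listed receptors for neuropeptides and related peptides, all of which had reads. The list was not a full survey of such receptors. The median of the 34 was 1.56 TPM. Only AkhR, the receptor of adipokinetic hormone, was listed higher, at 13.6 TPM, and the ratio of SPR to AkhR was 0.923 (interval 0.821 to 1.04). Proc-R, the proctolin receptor, followed at 11.7 TPM, with a ratio of SPR to Proc-R of 1.08 (interval 0.964 to 1.21). These 3 receptors could not be put in order beyond counting error. The lowest of the list was PK2-R1, a pyrokinin receptor, at 0.34 TPM. Mip, which encodes the myoinhibitory peptides, stood at 11.6 TPM, and the ratio of SPR to Mip was 1.09 (interval 0.946 to 1.26).

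Set against SPR, 8 of the 9 male-made members were more abundant per length, as were 8676 of all 16048 genes with reads. The ratio to SPR was 85.2 for Dup99B (interval 78.8 to 92.3) and 26.6 for SP (interval 24.2 to 29.2). With 100 bases taken off the lengths in the way given above, these ratios were 135.2 and 47.1, outside the counting intervals. On the log2 scale with a pseudocount of 1 TPM, the ratios at the deposited TPM were 6.30 for Dup99B and 4.63 for SP. For the other members, the ratio ran from 13.0 for CG17575 (interval 12.0 to 14.1) down to 2.31 for antr (interval 2.04 to 2.60). intr, with a ratio of 0.921 (interval 0.779 to 1.08), could not be told from SPR by counting error. The members thus fell in the order Dup99B, SP, CG17575, lectin-46Cb, lectin-46Ca, aqrs, CG9997, antr, SPR and intr. All neighbours in this order had intervals that did not overlap, except lectin-46Ca and aqrs, with a ratio of 1.03 (interval 0.971 to 1.10), and SPR and intr.

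lectin-46Cb and lectin-46Ca encode C-type lectins, proteins that bind sugars, which pass to the female with the seminal fluid. lectin-46Cb had 2100 reads and 119.6 TPM (interval 114.5 to 124.8), and lectin-46Ca had 1858 reads (interval 1774 to 1944) and 99.5 TPM. The ratio of lectin-46Cb to lectin-46Ca was 1.20 (interval 1.13 to 1.28). They lie next to each other on the plus strand of 2R, at 9815510 to 9816600 and at 9817300 to 9818535, with 699 bases between them. Both lie within the span of CG1648 on the opposite strand, which had 4276 reads and 250.9 TPM. Their share of reads from that gene was not tested. Among 16 C-type lectin genes found, they were the third and the fourth most abundant, after lectin-29Ca at 140.0 TPM and lectin-30A at 129.7 TPM. The median of these 16 genes was 15.1 TPM, and lectin-22C was the lowest at 0.14 TPM, from 2 reads.

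CG17575 and antr (antares) encode cysteine-rich secretory proteins of the CAP family. CG17575 had 2592 reads and 163.5 TPM (interval 157.2 to 169.9), the highest level of the network after the ligands. antr had 449 reads and 29.01 TPM (interval 26.4 to 31.8). They are neighbours as well, on the minus strand of 2R at 12845544 to 12846596 and at 12846848 to 12848004, 251 bases apart. The ratio of CG17575 to antr was 5.63 (interval 5.10 to 6.24). CG30486, the next gene on the same strand, 29 bases beyond antr, had 124 reads and 8.54 TPM. Of the 2 CG17575 transcripts, FBtr0087819 held 85.9% of the TPM with 2219 reads, and FBtr0302939 had 373 reads. All antr reads were assigned to FBtr0306584, and FBtr0087818 is listed at 0. Of the 7 CAP genes looked up, CG17575 was the second and antr the sixth. scpr-C was the highest at 267.3 TPM and Ag5r2 the lowest at 11.8 TPM.

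aqrs (aquarius), CG9997 and intr (intrepid) encode serine protease homologues, proteins with the protease fold that are thought to lack its activity. aqrs had 2011 reads and 96.2 TPM (interval 92.0 to 100.5), and CG9997 had 980 reads and 54.9 TPM (interval 51.5 to 58.5), a ratio of aqrs to CG9997 of 1.75 (interval 1.62 to 1.89). They stand on the minus strand of 3R, 28756999 to 28758234 for aqrs and 28755484 to 28756979 for CG9997, with 19 bases between them. In CG9997 the shorter transcript, FBtr0085314, held 880 reads and 91.9% of the TPM. FBtr0336789, whose 3' end lies farther out, had 100 reads. intr, the lowest of the 10 genes by TPM though not beyond counting error against SPR, had 185 reads and 11.6 TPM (interval 9.97 to 13.4). It lies on the plus strand of the same arm, 28790522 to 28791461, which is 32287 bases from aqrs. Its level was 0.120 of that of aqrs (interval 0.103 to 0.140), and all 20 accessory gland genes were higher than intr.

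**Figure D2:**
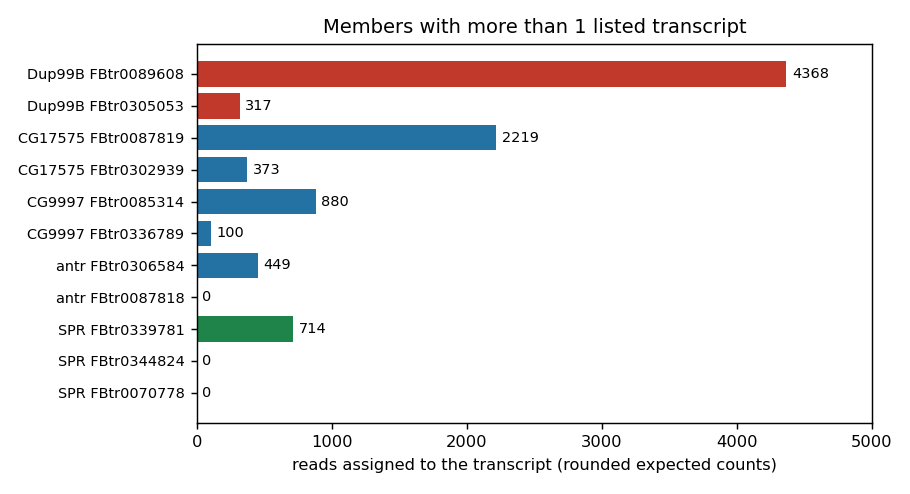
Reads assigned to each transcript (horizontal bars, rounded estimated counts) for the 5 network genes with more than 1 listed transcript. A single transcript held most reads in each, from 85.9% of the TPM in CG17575 to all of it in antr and SPR. The 3' end of SPR overlaps frma, and how far the assignment within SPR depends on frma reads was not tested.

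Thus 6 of the 10 genes lay in 3 pairs of direct neighbours on 1 strand, and both genes of a pair belonged to the same protein class. Among the 14041 genes with 10 or more reads, 3003 pairs of neighbours also lay on 1 strand, at most 1000 bases apart. The share of genes in such pairs was not counted. As a description, these 3003 pairs differed by a median of 3.88-fold in TPM. The lectin pair was closer in level than most of these, since 8.96% of the pairs differed less. For aqrs and CG9997 this share was 23.8%, and for CG17575 and antr it was 60.5%. The pair of CAP genes differed more than the median close pair. Its log2 difference of 2.49 was still within the quartiles of these pairs, 0.856 and 3.50.

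The other genes near the members varied in level. Dup99B was flanked by Obp99d at 5.55 TPM, 63 bases away, and by Obp99b at 3.92 TPM, both of the odorant-binding protein family. The ratio of Dup99B to Obp99d was 193.2 (interval 145.0 to 263.3). CG10000 near CG9997 stood at 2.37 TPM, CG34295 next to intr at 2.01 TPM, and Or49b, an odorant receptor gene next to CG17575, is listed at 0. Neighbours higher than the member itself, and not of the network, were found for both lectin genes, with CG1648 as given above, for SPR, with CG15784 at 62.0 TPM 14129 bases away, for intr, with wdn at 56.7 TPM 16521 bases away, and for SP. CG43147, 1482 bases from SP on the opposite strand, had 1531 TPM, and CG42481, 2611 bases away, had 823.6 TPM. Both were higher than SP, with a ratio of SP to CG43147 of 0.218 (interval 0.205 to 0.232) and of SP to CG42481 of 0.406 (interval 0.379 to 0.435). On its other side, the long non-coding RNA genes lncRNA:CR43911 and lncRNA:CR44557 had 0.43 and 13.4 TPM.

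**Figure D3:**
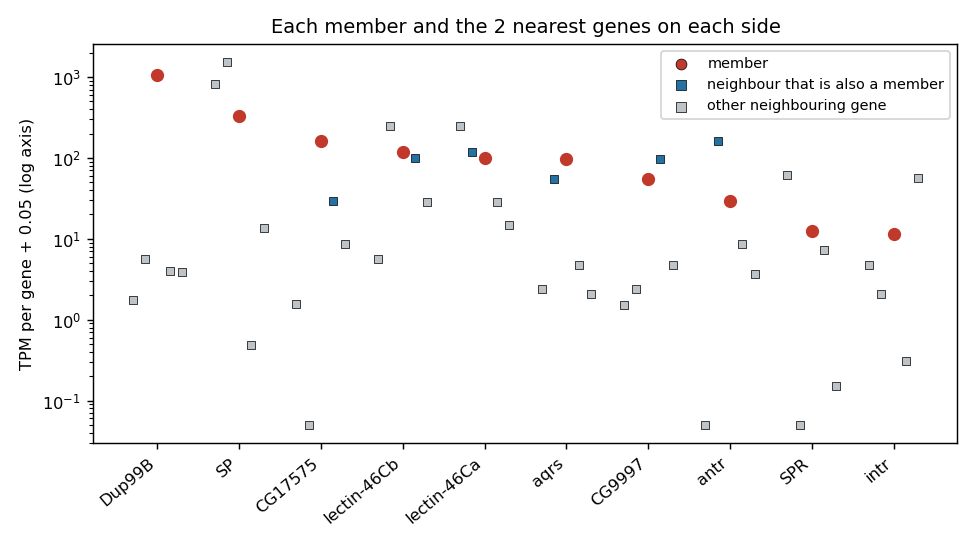
TPM per gene plus 0.05 (vertical, log axis) of each network gene (round points) and of the 2 nearest genes on each side (squares, in the order of their position). SP has 2 neighbours above it at 1531 and 823.6 TPM, whereas the neighbours of Dup99B are all far below it.

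Other genes of the network were near the lower members. Seminase (Sems), a male serine protease that acts on seminal proteins, had 431 reads and 28.9 TPM, and the ratio of antr to Sems was 1.004 (interval 0.878 to 1.15). Of the genes of the network that are needed in females, hdly (hadley) stood at 27.4 TPM, Esp at 10.7 TPM and frma at 7.27 TPM. These 3 genes lay on either side of SPR.

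Genes that act in the response of the female were looked up as well. The sex of the flies is not given, so these levels cannot be assigned to females. All 10 were below the median gene with reads, 16.2 TPM, and none was listed above SPR. The intervals of Mip and fru overlapped that of SPR. fru and dsx, the sex determination genes that mark neurons responding to SP, were at 11.3 and 10.4 TPM. The diuretic hormone gene Dh44 was at 9.17 TPM and its receptor Dh44-R1 at 2.53 TPM. Among genes of octopamine signalling, which serves ovulation, the receptor genes Oamb and Octbeta2R were at 9.03 and 6.93 TPM, and Tbh and Tdc2, for enzymes of its synthesis, at 2.53 and 1.22 TPM. ppk, a channel gene used to mark the sensory neurons of the uterus that respond to SP, was at 0.33 TPM from 14 reads.

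The male-made members were compared last with other genes known from the male tract. Whether those genes are expressed only there was not tested. The accessory gland list ran from 23.1 TPM for Acp53C14c to 3230 TPM for Mst57Db. CG17575, lectin-46Cb, lectin-46Ca, aqrs and CG9997 were each below 17 of its 20 genes, and antr was below 19. The median of the 9 male-made members was 99.5 TPM, against 385.2 TPM for the accessory gland list. It was above the median of 44.5 TPM of the 28 seminal fluid protein (Sfp) genes, which were chosen after the data had been seen. The reading thus depends on the list. Of 5 genes found for the ejaculatory duct and bulb, EbpIII at 1830, EbpII at 1707 and Ebp at 1412 TPM were above Dup99B, and Est-6 at 174.3 and Gld at 38.0 TPM were below it. Send1 and Send2, which mark secretory cells of the female sperm stores, had 19.5 and 0.07 TPM, the second from 1 read. Of 8 genes of neurons, Syt1, for a sensor of transmitter release, was the highest at 61.4 TPM and elav the lowest at 4.82 TPM.

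**Figure D4:**
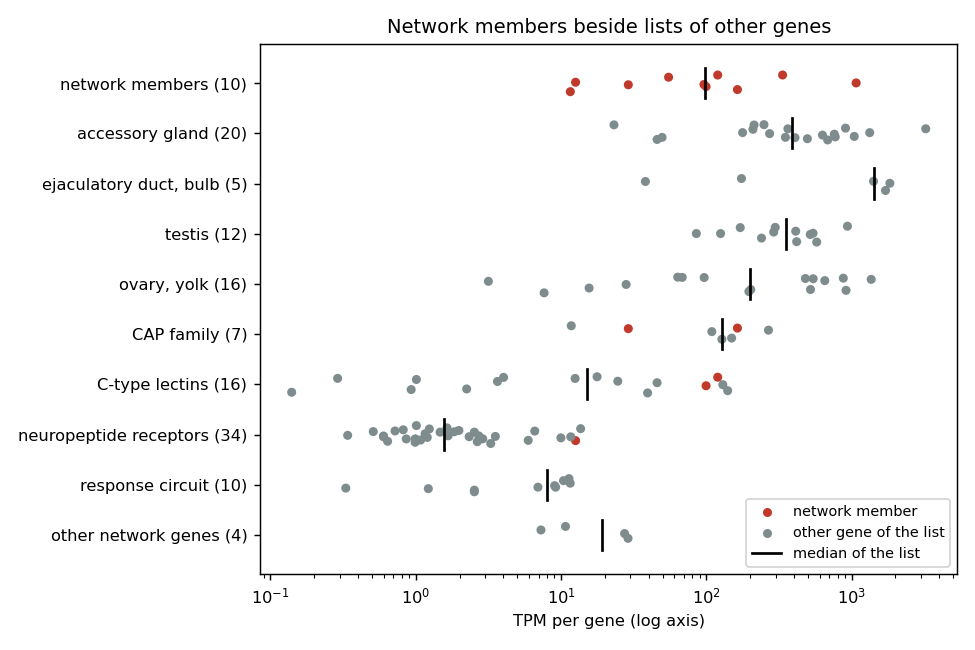
TPM per gene (horizontal, log axis) of the network genes (red) and of genes in 9 other lists (grey), each with the number of genes found and a black line at the median. The network median of 97.8 TPM lies below the accessory gland median of 385.2 TPM, and SPR is the second highest of the 34 neuropeptide receptors listed.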

How the data were processed

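CASAVA and HISAT2 are named in the submitters' processing notes, without versions. The tool that counted reads, the annotation and the build are named in no source used here. The authors deposited, per transcript, estimated counts rounded to whole numbers, TPM and FPKM. FPKM was used as an alternative only. Symbols came from a table of gene identifiers, and 138 of 17698 genes had none. All 10 members had the start and end of the RefSeq table of Release 6, so positions are given as in that release.

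Counts and TPM were summed per gene. Intervals (95%) were exact Poisson for counts and exact binomial for ratios of 2 genes, computed with scipy 1.17.1. Their computation was checked on simulated Poisson counts, which hold neither errors of read assignment nor spread between libraries. Transcript lengths were recovered from counts and FPKM, with the total set so that unspliced transcripts had their span. Of 5872 transcripts above 1000 reads, 468 were within 0.5% of their span. One read was worth 0.267 TPM in SP and 0.0176 TPM in SPR, and a count of 0 allows up to 3 reads as a one-sided limit, 0.0529 TPM at the length of FBtr0339781.

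Genes to name were all members, all genes of the 2 lists of network and response genes, the 3 highest and the lowest of each other list, and the 2 nearest genes on each side of a member. Not every gene of the last 2 kinds is printed, and the rest appear in counts, medians or the plot of neighbours. Peb, CG9134 and Clect27 were not matched by symbol. Members and lists were chosen with earlier results of these data known. The small RNA library was not used.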

Additional observations from a re-analysis of the deposited data

How the results depend on the processing

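The order of the 10 genes was kept with the most abundant transcript alone and with lengths less 100 bases, the last chosen after the data had been seen. Leaving out mitochondrial transcripts raised all 10 levels by the same 3.82%. Rescaling FPKM to the sum of TPM returned the TPM apart from rounding. Neither of these could change the order. Lengths less 100 bases gave a log2 ratio to SPR of 5.44 for SP and 6.96 for Dup99B, through the lengths alone, against 4.63 and 6.30 as reported. Pseudocounts of 0.1 and 0 left all 9 ratios to SPR within their counting intervals. With the most abundant transcript alone, the level was 5.64% lower for Dup99B, 14.1% lower for CG17575 and 8.07% lower for CG9997. The other 7 had reads on 1 transcript each, so their levels could not change. The share of genes below intr was 36.8% among genes with 10 or more reads and 49.9% among all genes, against 44.7% as reported. For SPR this share was 38.2% and 51.0%, against 45.9% as reported. With all genes counted, SPR thus lay just above the median gene. Counts divided by an independent transcript length were not run, since the table lists no lengths. No paired analysis was possible because there is 1 mRNA library. Depth limits intr most, with 185 reads.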

Other observations

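SP lies in a stretch of 3L with other abundant short genes. CG43147 had 6584 reads, CG42481 had 2539 reads, and Sfp70A4, a seminal fluid protein gene 4774 bases from SP, had 547 reads and 157.3 TPM. All 3 lie on the minus strand, opposite to SP. They were chosen after their values had been seen. Across the 28 genes whose symbol begins with Sfp (seminal fluid protein), also chosen after the data had been seen, all had reads, with a median of 44.5 TPM. Sfp87B was the highest at 1495 TPM and Sfp24Bd the lowest at 8.86 TPM. SP was exceeded by 2 of them and Dup99B by 1.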
